A study of Mus musculus with 57 samples.

Results

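Transcript levels of 9 heat shock chaperone genes were described in 56 single mouse T helper 2 (Th2) cells. The genes were chosen by name: Hsp90ab1, Hsp90aa1, Hspa8, Hspa4, Hsph1 and Dnaja1, whose products fold proteins in the cytosol, and Hspa9, Hspd1 and Hspe1, whose products do so in mitochondria. All 9 were present among the 10565 genes of the deposited table, which writes them in lower case (hsp90ab1, hsp90aa1, hspa8, hspa4, hsph1, dnaja1, hspa9, hspd1 and hspe1). The cells formed 1 group: wild type C57BL/6 CD4+ T cells from spleens of mice aged 8 weeks, driven towards the Th2 fate with IL-4 and anti-IFNγ, given IL-2 after 2 days, cultured for 5 days and restimulated with anti-CD3 and anti-CD28. A Fluidigm C1, which traps cells one by one in microfluidic chambers, was used to isolate them, and their titles number them within 5 sets, T1 to T5. The sources used here do not say what a set stands for, and the labels tie no cell to an animal or a culture. The cells were therefore treated as 1 sample, and no p-value was computed from them.

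Heat shock proteins are chaperones that bind unfolded or metastable proteins and use ATP to fold them. In the cytosol the HSP70 protein HSC70, encoded by Hspa8, receives substrates from J-domain proteins such as the product of Dnaja1, is recharged by the HSP110 nucleotide exchange factors encoded by Hspa4 and Hsph1, and passes many kinases and receptors on to HSP90, made from Hsp90ab1 and Hsp90aa1. In the mitochondrial matrix, the HSP70 protein mortalin (Hspa9) pulls in and folds imported proteins, and the barrel-shaped chaperonin HSP60 (Hspd1) works with its lid HSP10 (Hspe1). The transcription factor HSF1 raises many of these genes in stressed cells by binding heat shock elements, which are repeats of TTC and GAA units. The activated T cell is known to raise several of them as it grows.

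Hspd1 and Hspe1 lie head to head and share 1 promoter region, which is shown because the 2 genes are compared cell by cell further on. From RefSeq's GRCm38.p6 table, a later build than the authors' mm9, promoter windows were used for 5 of the 9 genes. Any windows of members on 1 chromosome were left out. Of the 2 Hspd1 starts used, 1 is divergent from the Hspe1 start with 215 bases between them, at chr1:55087933-55088147. They are printed on the plus strand, so that Hspd1 is transcribed to the left and Hspe1 to the right, and the capitals mark a run of heat shock element units.
Hspd1 to Hspe1: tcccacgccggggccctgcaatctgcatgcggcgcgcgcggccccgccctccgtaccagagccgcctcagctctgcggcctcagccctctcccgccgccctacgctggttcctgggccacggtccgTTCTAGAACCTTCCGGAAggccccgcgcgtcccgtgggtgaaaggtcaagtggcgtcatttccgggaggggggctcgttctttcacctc

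The run of 18 bases lies 71 bases from the Hspe1 start and 126 bases from this Hspd1 start. It holds the motif TTCNNGAANNTTC, searched on both strands, in overlapping matches. Of 32851 promoter windows of 300 bases in the table, 0.603% held that motif. The shorter motifs TTCNNGAA or GAANNTTC, which are parts of the long one, were in 15.1% of windows. The other Hspd1 start lies 95 bases past the Hspe1 start, inside the span that Hspe1 transcribes, and its window held neither motif and shared 1.33% of its bases with the Hspe1 window. Of the other members with a window, Hsph1 held the long motif just after a start, at chr5:149636279-149636308 on the minus strand, shown here with the motif in capitals.
Hsph1: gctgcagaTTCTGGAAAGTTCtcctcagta

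In 1 of its 3 windows Dnaja1 held a match to the short motif alone, and the Hspa4 window held neither. No window was used for Hsp90ab1, Hsp90aa1, Hspa8 and Hspa9, which are named only. A match of letters is a description and not a binding site.

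The deposited values are TPM, a level per length of transcript scaled to the same total in each cell, rounded to whole numbers. Each cell summed to between 999202 and 999914. TPM keeps no depth, so the number of reads behind a value is unknown, and a gene at 0 is only listed at 0. A gene was called detected at 1 TPM or more, and cells had 2679 to 8396 detected genes (median 4743.5). The cells carried T cell and Th2 markers: Cd3d, Cd3e, Cd2 and Gata3 were detected in 56 cells each, Il4 in 54 and Cd4 in 37. Of 26 listed marker symbols of other blood cells (B, myeloid, mast, basophil, NK, CD8 T and erythroid), 3 were analysed here: Cpa3 in 5 cells, Alas2 in 2 and Cd8b1 in 1. Cell T3_2 stood apart, with 3096 genes and 20.1% of its TPM in the humanin-like gene Mtrnr2l. T3_5 had the most genes. T3_2 was lowest of all 56 cells for Hsp90ab1, Hsp90aa1, Dnaja1 and Hspd1 and second lowest for Hspa9, so results are given with and without it.

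The 9 genes together took 1.07% of all TPM per cell (SD 0.338), from 0.331% in T3_2 to 2.3% in T3_3. The 6 cytosolic genes took 0.956% (SD 0.322) and the 3 mitochondrial genes 0.11% (SD 0.0427). Hsp90ab1 alone made up 61.7% of the members' total and Hspa8 21.3%. Of the 9 genes, 6 were detected in all 56 cells, whereas 3.77% of all genes in the table were. The others were Hspd1 (55 cells), Hspa4 (54) and Hsph1 (53).

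Among the cytosolic genes, Hsp90ab1, the constitutive HSP90 gene, had a lowest value of 2188 TPM (T3_2), a median of 6129 and a highest of 15399 (T3_3). Its mean was 6575 TPM (SD 2469), the 9th highest of the whole table. The second lowest cell, T5_3, held 2465 TPM and the second highest, T3_7, 13688 TPM, so the gene was abundant in every cell. Hsp90aa1, the HSP90 gene that stress induces, ranged from 36 TPM in T3_2 through a median of 326.5 to 1251 TPM in T3_8, with a mean of 356 TPM (SD 223). The Hsp90ab1 level was above that of Hsp90aa1 in all 56 cells. The median ratio was 19.3, from a log2 ratio of 2.15 in T3_8 (5548 against 1251 TPM) to 5.89 in T3_2 (2188 against 36 TPM). The SD of this log2 ratio was 0.85, against 1.39 for Hspe1 over Hspd1. Without T3_2 these were 0.84 and 1.16. The balance between both HSP90 genes thus differed between cells in size, while its direction did not.

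Hspa8, the constitutive HSP70 gene, ranged from 826 TPM (T1_4) through a median of 1992 to 5075 TPM (T5_4), with a mean of 2267 TPM (SD 1054). It was the 47th gene of the table by mean level. Dnaja1, whose J-domain protein delivers substrates to HSP70, was the lowest of the members by mean, at 72 TPM (SD 53.3). It ranged from 2 TPM (T3_2) through a median of 62 to 315 TPM, again in T5_4. The 2 cells with the next lowest and next highest Dnaja1 were T4_3 (7 TPM) and T4_4 (232 TPM).

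The HSP110 genes were the patchiest members. Hspa4 ranged from 0 in T3_8 and T5_3 through a median of 108 to 849 TPM in T4_9 (mean 162, SD 166), and 7 cells were below 10 TPM. Hsph1, whose match to the long motif is shown above, ranged from 0 in T3_7, T3_12 and T5_2 through a median of 67.5 to 832 TPM in T1_4 (mean 127, SD 163). For Hsph1, 14 cells were below 10 TPM and 24 were at 100 TPM or more, and the upper quartile was 20.1 times the lower one. It was detected in 94.6% of cells, with an exact Clopper-Pearson 95% interval of 85.1 to 98.9 that covers counting error only.

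Hsph1 also differed most between sets. Its medians in sets T1 to T5 were 43, 27, 17, 138.5 and 168 TPM, a 9.88-fold span. Every set held cells at 8 TPM or less as well as cells at 247 TPM or more, so the sets overlap widely. For Hspa4 the medians spanned 2.32-fold, from 77.5 TPM in T3 to 180 in T2. For the other 7 genes the span was 1.21-fold (Hsp90aa1) to 1.66-fold (Hspd1). Whether a set is a batch was not tested.

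Among the mitochondrial genes, Hspe1 was the highest by mean. It ranged from 45 TPM (T5_4) through a median of 469 to 1600 TPM (T4_4), with a mean of 493 TPM (SD 287). Hspd1 ranged from 0 in T3_2 and 25 TPM in T5_4 through a median of 290.5 to 682 TPM in T5_11, with a mean of 315 TPM (SD 173). Both chaperonin genes were thus at or near their lowest in T5_4, the cell with the highest Hspa8 and Dnaja1. Hspa9 ranged from 2 TPM (T2_5) through a median of 256.5 to 803 TPM (T2_2), with a mean of 291 TPM (SD 202). T2_5 held 3058 TPM of Hspa8, so low Hspa9 there did not go with low Hspa8.

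**Figure D1:**
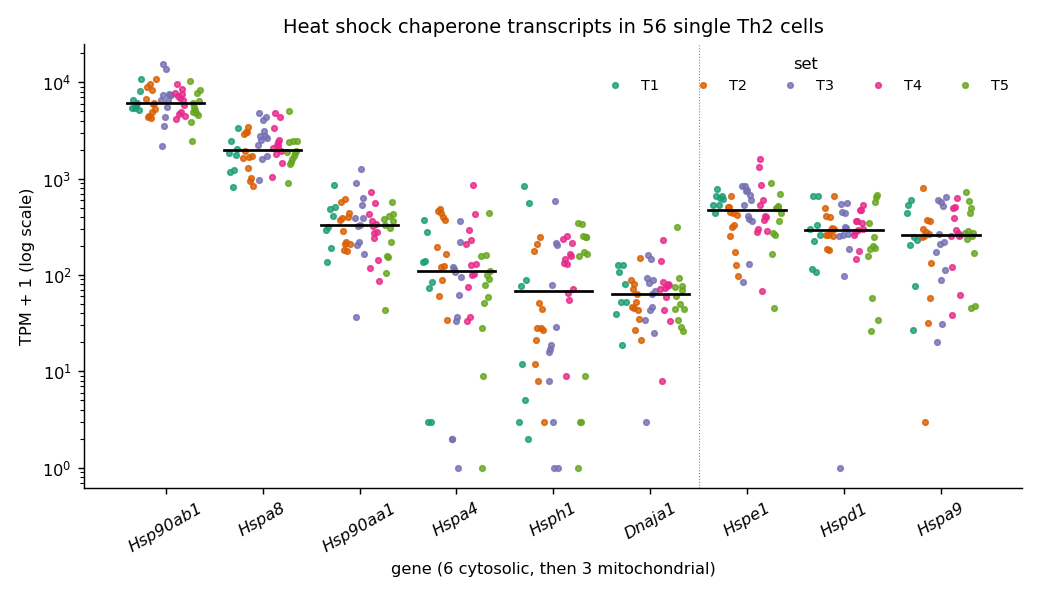
TPM + 1 on a log axis for each of the 9 genes in each of 56 cells; points are cells, coloured by set, and black bars are medians. Hsp90ab1 is the highest in every cell, Hspa8 is above the 7 others in all cells except T1_4 (826 TPM, against 832 TPM of Hsph1), and Hsph1 and Hspa4 reach down to 0.

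The order of the mean levels was Hsp90ab1, Hspa8, Hspe1, Hsp90aa1, Hspd1, Hspa9, Hspa4, Hsph1 and Dnaja1. Hsp90ab1 was above Hspa8, and Hspa8 above Hspe1, in 56 of 56 cells. Below these, each neighbouring pair of means differed by less than the SD of either gene, except Hsph1 and Dnaja1, whose difference of 55.4 TPM was larger than the SD of Dnaja1 alone. Hspe1 was above Hsp90aa1 in 40 cells, Hsp90aa1 above Hspd1 in 31, Hspd1 above Hspa9 in 31, Hspa9 above Hspa4 in 44 and Hspa4 above Hsph1 in 35. Hsph1, although higher by mean, was above Dnaja1 in 26 cells and below it in 30.

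To ask how evenly the genes were expressed, the squared coefficient of variation over cells (CV2) was set against genes with similar means. The excess is a gene's log2 CV2 less the running median at its mean, and values below -1 or above 1 were called. Of 7871 genes that entered, 15.1% were below -1 and 13.1% above 1. Of the 9 chaperones 3 were below -1: Dnaja1 (-2.38), Hspd1 (-1.43) and Hsp90aa1 (-1.26). None was above 1. Hspa9 (-0.98), Hspe1 (-0.94) and Hsp90ab1 (-0.89) lay just inside the threshold, followed by Hspa4 (-0.64), Hsph1 (-0.34) and Hspa8 (-0.27). All 9 values were negative over the 56 cells, against a median of 0.00 over all genes outside the 9, but Hsph1 was at 0.41 without set T4.

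Dnaja1 stood lowest, with 98.5% of genes above it in excess. Its log2 CV2 was -0.87, where the running median was 1.52. Hsph1 had the largest log2 CV2 of the members, 0.71, below a running median of 1.05. The highest cell held 3.87% (Hspd1) to 11.7% (Hsph1) of a gene's total, and without each gene's highest cell the same 3 genes were below -1. Hsp90aa1 was at -0.97 without set T1, -0.89 without T2 and -0.96 without T4, and it was not called without T5 either. Other members passed -1 with 1 set left out: Hsph1 (-1.01 without T1), Hsp90ab1 (-1.26 without T3), Hspa9 (-1.23 without T2 and -1.03 without T5) and Hspe1 (-1.02 without T2 and -1.77 without T4). With TPM rescaled per cell, 6 of the 9 were below -1, with Hspa9 (-1.05), Hspe1 (-1.08) and Hsp90ab1 (-1.02) added. Hsp90ab1 and Hspa8 lie among the highest genes, where the running median is flat because too few genes lie above them.

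**Figure D2:**
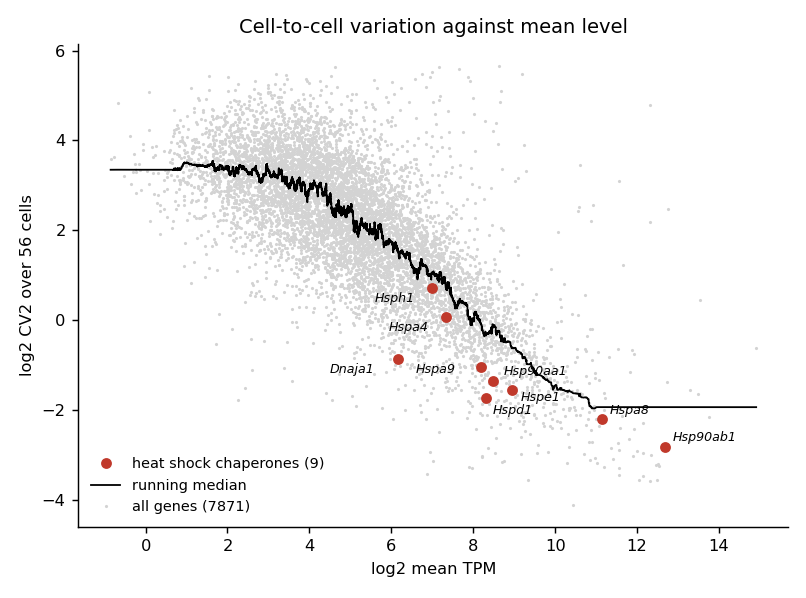
Log2 CV2 over 56 cells against log2 mean TPM for 7871 genes (grey), their running median (line) and the 9 chaperones (red). All 9 lie below the line, Dnaja1 farthest, at -2.38.

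The pair with a shared promoter varied together only weakly. Hspd1 and Hspe1 had a Spearman rho of 0.19 over 56 cells and a Pearson r of log2(TPM + 1) of 0.41. In T3_2, Hspd1 was 0 and Hspe1 83 TPM, and without that cell r was 0.29 and rho 0.15. Without the 2 cells farthest from the Hspd1 median, T5_11 and T1_7, r was 0.39. The depth of each cell is unknown, cells of a set may share a source, and rho was 0.17 as a partial value on the number of genes detected and 0.21 with ranks centred by set. Within sets T1 to T5 it was 0.60, 0.29, 0.13, 0.21 and 0.35, from 8 cells in T1 and 12 in each other set, so it was positive in all 5.

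Cells that were high for Hspd1 were not always high for Hspe1. Of the 14 highest cells for each gene, 5 were shared, and 5 of the 14 lowest, where 3.5 would be shared if the genes were independent. No cell was among the 14 highest for Hspd1 and the 14 lowest for Hspe1, and 3 were the other way round. T4_3, for example, held 1334 TPM of Hspe1 and 144 TPM of Hspd1. Hspe1 was above Hspd1 in 41 of 56 cells, with a median ratio of 1.37 and an SD of 1.39 for the log2 ratio, or 1.16 without T3_2. In 33 cells both levels were within 2-fold of each other.

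**Figure D3:**
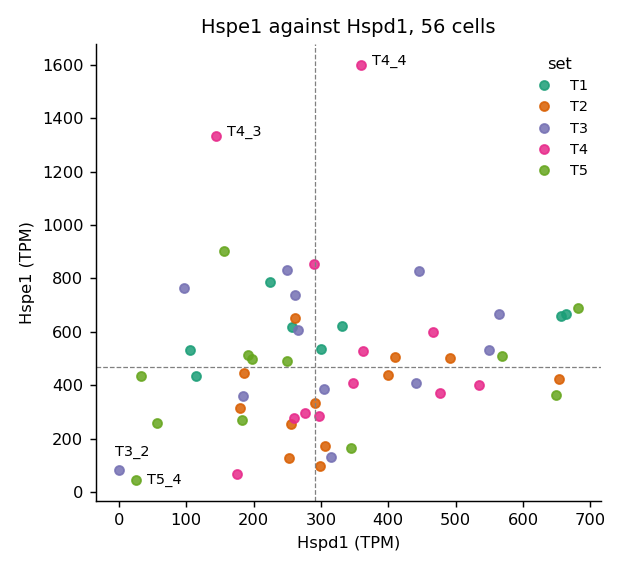
Hspe1 against Hspd1 in TPM, 1 point per cell, coloured by set, with dashed lines at the medians of 290.5 and 469 TPM. The points spread widely around any common trend (rho 0.19), T4_4 and T4_3 lie highest for Hspe1, and T3_2 and T5_4 are low for both.

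Many genes elsewhere in the genome followed either gene more closely. Of the genes detected in at least 28 cells, 4312 were compared with each: 951 had a higher rho with Hspd1 than Hspe1 did, and 755 had a higher rho with Hspe1 than Hspd1 did. Head-to-head pairs were compared after these values were seen, as pairs whose annotated 5′ ends lie within 1000 bases in GENCODE's GRCm38 annotation. Among 22 such pairs with both genes in at least 50 cells, Hspd1 and Hspe1 included, the median rho was 0.16 (quartiles 0.06 and 0.30, range -0.28 to 0.58), and 8 pairs were above Hspd1 and Hspe1. The annotated 5′ ends of the 2 genes overlap and share 82 stretches of 31 bases. The sources used here do not say whether the libraries keep strand, so reads there could be counted for either gene.

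Counting can also mix a chaperone with other genes that share sequence with it on either strand, copies or not. The annotation names 5 Hspd1, 6 Hspe1, 1 Hspa9 and 1 Dnaja1 pseudogenes, none of them analysed here, and 73.3% of the 31-base stretches of Hspd1-ps3 are also in Hspd1. Dnaja1 shares 578 such stretches with the protein-coding gene Smu1 (rho 0.10 with it). Hsp90ab1 shares 84 with the processed pseudogene Gm13498, which was detected in 55 cells. Levels of Hspd1, Hspe1, Hspa9, Dnaja1 and Hsp90ab1 are therefore uncertain by the part of the reads that could be placed on either.

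Over all 36 pairs of the 9 genes, the median rho was 0.15, from -0.17 to 0.40, against 0.04 over all 1065070 pairs of the 1460 genes detected in at least 50 cells, which include all 9. A rho of 0.3 or more was found in 8 of 36 pairs (22.2%), against 3.84% of all pairs. Without T3_2 these were 0.11 and 6 pairs, against a median of 0.02 and 2.98% over all pairs. Negative values made up 13.9% of the member pairs and 37.9% of all pairs. Within sets T1 to T5 the members' median rho was 0.09, 0.19, 0.29, 0.11 and 0.04. Without T3 only 4 pairs reached 0.3, and without T4 5 pairs did. Other fixed lists were also compared, over genes in at least 28 cells. T and Th2 cell markers had a median rho of 0.17, with 4 of 15 pairs at 0.3 or more. The median was 0.17 for TRiC, 0.21 for ER chaperone, 0.37 for G1/S and 0.60 for G2/M genes. It was 0.14 for HSP90 co-chaperones, 0.08 for HSP70 co-chaperones and prefoldin, 0.02 for mitochondrial proteostasis and 0.0 for heat shock response genes.

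The closest pair by rho was the cytosolic core, Hsp90ab1 and Hspa8, at 0.40 (r 0.38), or 0.37 (r 0.33) without T3_2. By r other pairs were closer. Hsp90aa1 with Hspd1 was highest over all cells (0.54), and Hsp90ab1 with Hsp90aa1 without T3_2 (0.38). The rho of Hsp90ab1 and Hspa8 was positive in all 5 sets, from 0.04 in T2 to 0.72 in T3. T3_3, with 15399 TPM of Hsp90ab1 and 4829 TPM of Hspa8, was the highest and the second highest cell for these genes, and without T3_3 and T3_7, the 2 cells farthest from the Hsp90ab1 median, r was 0.28. Hspa8 and its J-domain partner Dnaja1 had a rho of 0.35 (r 0.40), and T5_4 topped both. Within sets this pair ranged from -0.16 in T5 to 0.76 in T3.

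The HSP110 genes Hspa4 and Hsph1 had a rho of 0.35 (r 0.29), positive in all 5 sets (0.17 to 0.71) and 0.34 without T3_2. Each had no other partner at 0.3 or more among the members. In T3_8, however, Hspa4 was listed at 0 beside 584 TPM of Hsph1. The HSP90 genes had a rho of 0.31 (r 0.48), 0.27 without T3_2, and ranged from -0.43 within T2 to 0.86 within T4.

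Links were also seen across compartments. Of 18 pairs of a cytosolic with a mitochondrial gene 4 reached 0.3 (median 0.17), and of 15 cytosolic pairs 4 did (median 0.14). The 4 mixed pairs were Hsp90aa1 with Hspd1 (0.37, r 0.54) and with Hspe1 (0.33, r 0.37), Hsp90ab1 with Hspe1 (0.35, r 0.32) and Dnaja1 with Hspd1 (0.34, r 0.46). Without T3_2 the rho values were 0.34, 0.29, 0.32 and 0.30, and r was 0.37, 0.28, 0.23 and 0.11. Each of these pairs was negative in at least 1 set. Hsp90aa1 with Hspd1 ranged from -0.08 in T2 to 0.64 in T3, and was -0.05 in T4. Hsp90aa1 with Hspe1 ranged from -0.01 in T3 to 0.79 in T1. Hsp90ab1 with Hspe1 ranged from -0.1 in T1 to 0.57 in T5, and Dnaja1 with Hspd1 from -0.27 in T5 to 0.75 in T3. None of the 3 mitochondrial pairs reached a rho of 0.3: Hspa9 had a rho of 0.07 with Hspd1 (r 0.26) and 0.03 with Hspe1 (r 0.11). Hspa9 was the least connected member, with no partner at 0.3 and a lowest value of -0.17, with Hsph1. A score of the 6 cytosolic genes, the mean of z-scored log2(TPM + 1), had a rho of 0.41 with that of the 3 mitochondrial genes, 0.38 without T3_2 and 0.39 as a partial value on genes detected. Whether the kinds of pairs differ was not tested.

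**Figure D4:**
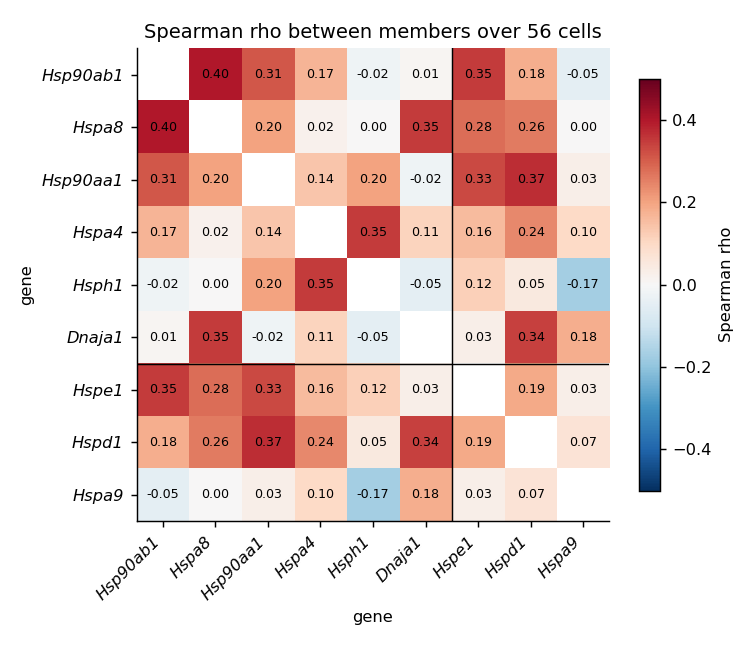
Spearman rho between each pair of the 9 genes over 56 cells, on a colour scale from -0.5 to 0.5, with lines between the 6 cytosolic and the 3 mitochondrial genes. Hsp90ab1 with Hspa8 is highest at 0.40, and the row of Hspa9 is pale.

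The genes whose pattern was most like each member were named by rank of rho among genes in at least 28 cells. For Hsp90ab1 these were Gm13498 (0.69), the glycolytic enzyme Aldoa (0.53), Lsm6 (0.52), the chaperonin subunit Cct6a (0.51) and the J-domain gene Dnajc8 (0.50). Gm13498 is a processed pseudogene with a mean of 4.77 TPM, and the stretches it shares with Hsp90ab1 are 3.93% of its own. For Hsp90aa1 they were the HSP90 co-chaperone p23, encoded by Ptges3 (0.56), Gsto1 (0.49), Csda (0.49), the nucleolar chaperone Npm1 (0.48) and Polr1a (0.48). Stip1, which bridges HSP70 to HSP90, led the list of Hsph1 (0.52), ahead of Nrp1 (0.50).

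The lists of the mitochondrial pair held only the few genes of highest rho. They had no gene in common, but the overlap expected by chance was not computed, so no contrast is drawn from these lists. For Hspd1 they were Gm5088 (0.61), the poly(A)-binding gene Pabpc4 (0.58), Nxt1 (0.56), the transferrin receptor Tfrc (0.55) and Hipk1 (0.53). For Hspe1 they were the respiratory chain genes Uqcr11 (0.51) and Ndufa7 (0.49), with Npm1 (0.50), Ssrp1 (0.47) and Snrpa1 (0.47). For Hspa8 the highest values were with Mir682 (0.50), annotated as a microRNA gene but with a mean of 2991 TPM, and Bola2 (0.49). The highest were Lsm4 (0.59) and Eif4a2 (0.53) for Hspa4, and Trip12 (0.45) and Ilf2 (0.44) for Dnaja1. For Hspa9 they were Sgta (0.50) and Pptc7 (0.46). Leaving out T3_2 changed each of these rho values by 0.03 or less, and all 30 stayed positive.

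To set the 9 genes beside other folding machinery, a score of all 9 was compared with fixed lists. The eukaryotic cytosolic chaperonin TRiC, which folds actin and tubulin, followed it most closely. The TRiC score had a rho of 0.57 with the members' score (0.55 without T3_2 and 0.55 as a partial value on genes detected). The HSP90 co-chaperones had 0.50 (0.50 without T3_2), the HSP70 co-chaperones 0.32 (0.18 as a partial value), the ER chaperones 0.10, mitochondrial proteostasis genes 0.06, and G1/S and G2/M genes 0.09 and 0.02. The differences between these values were not tested. The ER chaperone genes did vary with each other, with a median rho of 0.21 over 91 pairs, against 0.17 over the 28 TRiC pairs. The ER score had a rho of 0.41 with the number of genes detected, against 0.17 for the TRiC score. As a partial value on genes detected, the ER score had a rho of -0.03 with the members' score. Whether the number of genes detected underlies the rho among ER genes was not tested. The members' score itself had a rho of 0.29 with the number of genes detected.

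**Figure D5:**
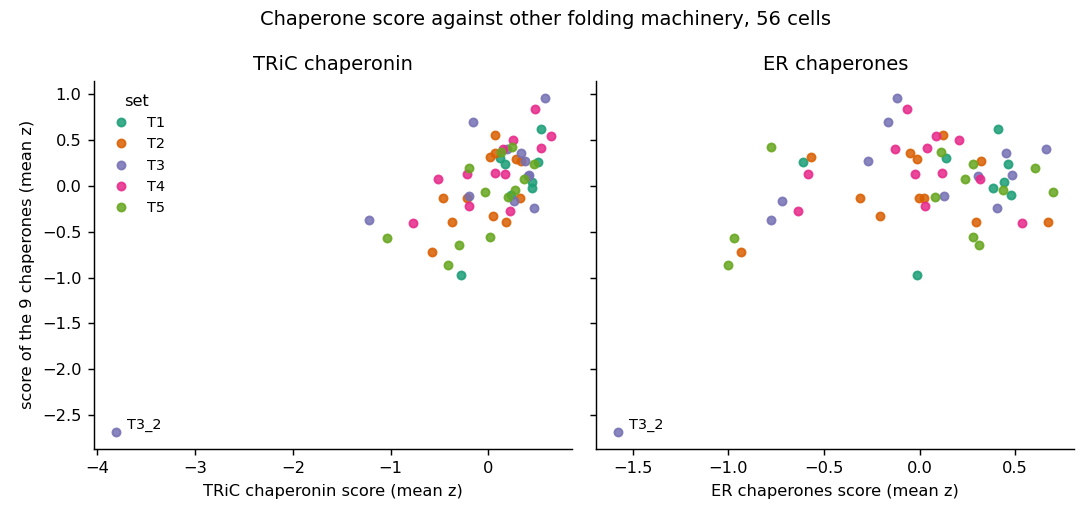
Score of the 9 chaperones (mean z-score of log2(TPM + 1)) against the score of TRiC genes (left, rho 0.57) and of ER chaperone genes (right, rho 0.10), 1 point per cell, coloured by set. T3_2 is the lowest cell on every axis, and a trend remains on the left without it (rho 0.55).

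Gene by gene, values with the members' score were as follows. Of 4304 genes outside the 9 that were in at least 28 cells, 6.51% had a rho of 0.3 or more with the members' score, and the median was 0.08. Of 8 TRiC subunits 3 did, Cct6a (0.52), Tcp1 (0.40) and Cct7 (0.37), with a median of 0.27, while Cct2 was at 0.01. All 8 subunits were in at least 55 cells, at means of 367 TPM (Cct4) to 1469 TPM (Cct5). Of 9 HSP90 co-chaperones 2 did, Stip1 (0.45, mean 384 TPM) and Ptges3 (0.43, mean 2624 TPM), with a median of 0.17. Ptges3 was the highest co-chaperone and ranged from 115 through a median of 2334 to 5213 TPM. The excess of the list ran from -1.19 for Cdc37l1 to 1.30 for the immunophilin gene Fkbp5, of which T4_3 held 42% of the total. The genes most like the members' score were Psmg2 (0.54) and Psmg3 (0.53), which encode proteasome assembly chaperones, Ctnnb1 (0.52), Cct6a (0.52) and Gm5088 (0.51). Without T3_2, Psmg3 (0.50) fell to place 7 and Cct6a (0.47) to place 12. Psmg2, Gm5088 and Ctnnb1 were then at places 2, 4 and 5.

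Of the HSP70 co-chaperones, 1 of 15 reached 0.3, the ribosome-associated J-domain gene Dnajc2 (0.31, mean 115 TPM). The list's highest gene, St13, had 261 TPM and a rho of 0.11. Its variation spanned from an excess of -3.08 for Dnajb6, a J-domain gene in 51 cells, to 1.35 for Dnajb14, of which cell T4_5 held 60.1%. No prefoldin gene of 5 reached 0.3. Pfdn5 was highest (465 TPM, rho 0.25), and the excess ran from -1.65 (Pfdn4) to -0.33 (Vbp1). Of other HSP70 family genes, Hspa14 was highest (232 TPM in 51 cells, rho 0.15), Hspa13 was in 27 cells and Hspa4l in 11.

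The ER and mitochondrial counterparts of the members were abundant but had values near 0 with the score. Hspa5, the ER HSP70 known as BiP, had a mean of 1342 TPM in 56 cells and a rho of -0.02 with the score, and Hsp90b1, the ER HSP90, 717 TPM in 56 cells and 0.02. Of 14 ER genes 2 reached 0.3, P4hb (0.32) and Hyou1 (0.32), and Dnajc3 had the smallest excess (-1.50). Among mitochondrial genes Trap1, the mitochondrial HSP90, had 310 TPM in 49 cells and a rho of 0.02, and 1 of 14 reached 0.3, the import receptor Tomm70a (0.40). Dnajc15 had the highest mean (358 TPM, rho -0.18) and Dnajc19 the smallest excess (-1.75). Tomm34 had an excess of 4.73, and cell T3_2 held 62.7% of its total; without its highest cell the excess was -0.78.

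Genes of the heat shock response itself varied in how many cells they were detected in. Hsf1, its master regulator, was found in 38 cells (median 13 TPM, mean 72.6 TPM), and T3_2 held 25.6% of its total. Hsf2 was in 53 cells at a mean of 84.8 TPM, and varied less than genes of like mean (excess -1.40). Dnajb1, a strongly heat-inducible J-domain gene, was found in 29 cells; its median was 1.5 TPM and its highest value 548 TPM, in T5_4. That is the cell with the highest Hspa8 and Dnaja1, and it held 2 TPM of Hsph1 and 105 TPM of Hsp90aa1. Chordc1 had 171 TPM in 54 cells. None of the 4 genes of this list in at least 28 cells reached a rho of 0.3 with the members' score (median 0.11). Hspa1a, Hspa1b and Hspb1 were not analysed here.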

How the data were processed

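RNA sequencing of 56 single Th2 cells was analysed from 1 table, and the pooled sample of 10000 cells was left out as not analysed here. The deposited TPM values of the single cells are whole numbers whose totals fall just short of the full TPM total, so they are handled as a score (TPM rounded by the authors, read from the values). Per the submitters' processing notes, FastQC, Bowtie 0.12.2 and Cufflinks were used with build mm9; their roles are not stated there. The genes and lists were chosen with earlier results of these data known. Detection was 1 TPM or more. Variation used genes detected in at least 10 cells and a running median of log2 CV2 along mean TPM, taken over 101 genes, which the highest genes share. Co-variation was Spearman's rho over cells, beside Pearson's r of log2(TPM + 1), without p-values because the cells are 1 sample; correlations between members, with other genes and with lists are descriptions. Named genes were all members, the 5 most alike for Hspd1, Hspe1, Hsp90ab1, Hsp90aa1 and the score and 2 for the others, and up to 4 per list (highest mean, largest and smallest excess, highest rho), besides genes fixed by name. The values for other genes of these lists are given as counts or as examples chosen after their values were seen. Scripts (Python 3.11.15, numpy 2.4.6, pandas 2.3.3, scipy 1.17.1) were tested on simulated data. Alternatives changed the detection threshold, running median, cell filter, pseudocount, scaling and the cells or sets included. No 2 cells held identical values.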

Additional observations from a re-analysis of the deposited data

How the results depend on the processing

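The number of members with an excess below -1 was 3, and became 5 with a running median over more genes and 6 with TPM rescaled per cell without Mtrnr2l and the 10 genes of highest mean outside the 9; none was above 1 in any of the 13 alternatives. The rho of Hspd1 and Hspe1 (0.19) lay between 0.15 and 0.23 in the alternatives that use ranks, while Pearson's r was 0.41 with a pseudocount of 1 or 0.1 and 0.39 with a pseudocount of 10. The number of member pairs at 0.3 or more was 8, ranged from 4 to 9 with 1 set left out, and was 4 with Pearson's r without T3_2, where 5.92% of all pairs reached 0.3. With Pearson's r over all 56 cells it was 11, against 14.3% of all pairs. The number of members detected in every cell was 6, 4 at a threshold of 5 or 10 TPM and 7 without T3_2. The median rho of the 36 pairs lay between 0.11 and 0.22. The alternatives without T3_2 alone were chosen after seeing the data. The cause of these changes was not tested. TPM keeps no depth, so values near 0 cannot be told from missed transcripts. No paired analysis was possible because the cells form 1 group.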
